A study of Mus musculus with 12 samples.

Results

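A group of 8 genes of the mouse telencephalon was followed because their RNA differed between 2 siRNA sets made against the same pair of genes, Dmrt3 and Dmrta2. They were Poln, Tor1aip2, Klhdc9 and Pdf, higher with set 2 than with set 1, and Slc7a10, Gprc5c, Rcan2 and Sesn3, lower with set 2 than with set 1. All probes for these genes were taken, which gave 14 of the 39429 probes on the array and 8 of its 19751 named genes. The genes were chosen with the difference between the sets in view, so their values in set 2 and in set 1 are given as a description, without a test.

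The RNA came from CD-1 embryos whose medial telencephalon was electroporated at E11.5 (embryonic day). Every group received a vector for nuclear EGFP, and cells with green fluorescence were sorted 24 hours later, at E12.5. Groups comprised siRNA set 2 against Dmrt3 and Dmrta2, siRNA set 1 against the same genes, an expression plasmid for Dmrta2, and control siRNAs. Each had 3 samples, stated to be independent, for 12 one-colour Agilent arrays; whether embryos were pooled is not given in the sources used here. All animals carried the same strain background and no mutation is named. The plasmid group was set against control siRNAs, and no group with an empty plasmid was analysed here. Sorted cells are a bulk sample, in which fewer cells of a type and less RNA per cell cannot be told apart. The siRNA sequences were not analysed here.

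A small interfering RNA guides a protein complex to transcripts that match it, and 2 sets of different sequence aimed at the same genes are a common control in knockdown work. Dmrt3 and Dmrta2 are DM-domain transcription factors of the dorsal and medial telencephalon, the tissue that forms hippocampus and cortical hem. The genes described here belong to several systems. Poln encodes DNA polymerase nu, an error-prone enzyme linked to DNA repair. Tor1aip2 encodes LULL1, a protein of the endoplasmic reticulum that activates torsin ATPases, and Pdf encodes the mitochondrial peptide deformylase, which removes the formyl group from the first methionine of new proteins. Slc7a10 encodes Asc-1, a transporter of small neutral amino acids, Gprc5c an orphan receptor of the retinoic acid-induced family, and Rcan2 a regulator of the phosphatase calcineurin. Sesn3 encodes a sestrin, a FoxO target that restrains the growth kinase complex mTORC1. Klhdc9 encodes a kelch-domain protein.

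Between 67.1% and 72.2% of the spots of an array stood well above background, and no spot was saturated. All 10 telencephalic markers, Lhx2 among them, were well above background on all 12 arrays. Dmrt3 was at 57.7% of its control level in set 2, 49.5% in set 1 and 95.4% in the plasmid group, and the log2 difference between the sets was 0.22 ± 0.30 (SE, limma adjusted p = 0.974). Dmrta2 was at 80.8% of control in set 2, 65.5% in set 1 and 71.0% in the plasmid group, with a difference between the sets of 0.30 ± 0.17 (adjusted p = 0.751). The level of the Dmrta2 probe in the plasmid group was thus below control; whether the plasmid's transcript holds the probe's target is not given in the sources used here. The 4 arrays with the same replicate number shared 1 slide, and each group kept the same place on every slide, so place and group cannot be told apart.

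RefSeq promoter windows, from 250 bases before to 50 after the annotated start, were at hand for 7 of the 8 genes, 13 windows in all (GRCm38.p6). Only 3 of them are printed, on the gene's own strand: that of Sesn3, the gene farthest below control in set 2, that of Slc7a10, the gene farthest from control in set 1, and that of a start of Tor1aip2, whose probes disagreed. Capitals mark the motifs, which were searched on both strands. A core bound by DM-domain proteins was searched as ACATTGT. The forkhead core that FoxO factors bind was searched as GTAAACA. The Sp1-type GC box was searched as GGGCGG, and the box that the factor NF-Y binds as CCAAT. No 2 matches overlap in these windows.
Sesn3, chr9:14276051-14276350, plus strand: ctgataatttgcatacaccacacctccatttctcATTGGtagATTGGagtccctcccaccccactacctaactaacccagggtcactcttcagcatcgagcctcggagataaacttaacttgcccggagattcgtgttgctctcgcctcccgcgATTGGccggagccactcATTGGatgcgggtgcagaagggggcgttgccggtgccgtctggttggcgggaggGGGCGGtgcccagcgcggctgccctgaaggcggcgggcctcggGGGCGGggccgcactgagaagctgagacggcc
Slc7a10, chr7:35186135-35186434, plus strand: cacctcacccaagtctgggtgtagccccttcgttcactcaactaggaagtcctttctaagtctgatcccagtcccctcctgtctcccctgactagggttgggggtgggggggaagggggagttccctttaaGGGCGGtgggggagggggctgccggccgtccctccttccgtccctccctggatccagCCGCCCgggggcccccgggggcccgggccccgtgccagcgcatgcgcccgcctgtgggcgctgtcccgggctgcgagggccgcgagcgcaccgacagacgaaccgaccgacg
Tor1aip2, chr1:156040611-156040910, plus strand: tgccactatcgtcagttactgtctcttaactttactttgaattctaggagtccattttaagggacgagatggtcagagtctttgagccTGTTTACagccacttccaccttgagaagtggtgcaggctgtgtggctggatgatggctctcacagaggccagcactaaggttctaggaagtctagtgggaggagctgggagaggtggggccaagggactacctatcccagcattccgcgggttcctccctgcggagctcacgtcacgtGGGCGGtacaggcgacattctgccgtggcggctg

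The DM-domain core was in 0 of the 13 windows and in 2.96% of the 32851 RefSeq windows of this length. The forkhead core was in 2 windows, both at Tor1aip2 starts, against 3.65% of all windows. These 2 windows overlap and hold the same forkhead match, so it is a single site counted in both. The same GC box likewise lies in both. The GC box was in 6 windows, among them those of Sesn3 and Slc7a10 and the printed one of Tor1aip2, against 35.7% of all windows. The CCAAT box was in 4 windows, among them those of Sesn3, Klhdc9 and a start of Rcan2, against 37.4%. A match of these letters is a description of the window and not a site. The windows of Sesn3 and Slc7a10 held 62.7% and 70.7% G and C, against a median of 52.7% over all windows.

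Levels are given as a percentage of the signal at each array's 75th percentile, and differences as log2. Poln, on chromosome 5 (probe A_55_P2080531, transcript NM_181857), reached 18.9%, 26.5% and 15.95% in set 2 and 6.55%, 5.41% and 4.28% in set 1. It stood at 4.15%, 4.48% and 4.80% in the plasmid group and at 3.13%, 3.76% and 4.63% with control siRNAs. All 3 set 2 arrays lay above the 9 others, while set 1 overlapped the plasmid and control groups. Its mean was 5.28 times the control level in set 2, 1.41 times in set 1 and 1.18 times in the plasmid group. Set 2 exceeded set 1 by 1.91 ± 0.22 (SE), 3.75-fold, with 1.53, 2.29 and 1.90 within the 3 slides, and by 1.05 with normexp background correction. A second Poln probe for the same transcript, A_55_P2080530, was well above background on 1 set 2 array and 1 set 1 array and on no other. It did not pass the filter, which asked for a signal well above background on 3 or more of the 12 arrays, and is the only one of the 14 that did not.

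Tor1aip2, on chromosome 1, has 3 probes. The brightest, A_55_P2103115 for transcript NM_172843, read 187%, 247% and 191% in set 2 and 90.9%, 92.3% and 94.2% in set 1. It read 117%, 140% and 110% in the plasmid group and 96.9%, 120% and 118% with control siRNAs. Set 2 was above all other arrays and set 1 below all controls, at 186% and 83.2% of the control mean. The sets differed by 1.16 ± 0.15, 2.24-fold, with 1.04, 1.42 and 1.02 within slides.

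The other Tor1aip2 probes did not show this separation. Probe A_51_P111932, for transcript NM_022329, read 35.3%, 59.1% and 48.8% in set 2 and 37.2%, 60.3% and 41.3% in set 1, a difference of 0.05 ± 0.22. It read 32.2% to 39.1% in the plasmid group and 30.7% to 38.1% with control siRNAs, so all 4 groups overlapped. The third probe, A_52_P212756, also for NM_172843, was well above background on 2 arrays of each group, with levels between 0.247% and 2.35% and a difference between the sets of 0.66 ± 0.78. The sets were thus separated at 1 of the 3 probes, and the standard error of the third was larger than its difference.

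Klhdc9, on chromosome 1 (A_51_P479352), read 24.4%, 21.7% and 19.4% in set 2 and 10.2%, 12.2% and 11.8% in set 1. It read 20.3%, 19.5% and 20.1% in the plasmid group and 16.4%, 16.7% and 15.4% with control siRNAs. Set 2 and the plasmid group lay above all controls and set 1 below them, while set 2 and the plasmid group overlapped. Relative to control the means were 135% in set 2, 70.2% in set 1 and 123% in the plasmid group. The sets differed by 0.94 ± 0.12, 1.92-fold, with 1.26, 0.84 and 0.72 within slides.

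Pdf, on chromosome 8 (A_55_P2095153), separated set 1 from everything else. It read 260%, 259% and 249% in set 2 and 166%, 156% and 155% in set 1. The plasmid arrays read 237%, 267% and 231%, and the control arrays 257%, 253% and 233%. Set 1 lay below the 9 other arrays at 64.2% of control, while set 2 (103%), the plasmid group (98.9%) and control siRNAs overlapped. The sets differed by 0.69 ± 0.11, 1.61-fold, with 0.65, 0.73 and 0.69 within slides.

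Slc7a10, on chromosome 7 (A_51_P268193), was also set apart by set 1, in the other direction. It read 11.8%, 10.4% and 9.29% in set 2 and 29.7%, 32.4% and 23.6% in set 1. The plasmid group read 18.4%, 17.3% and 16.7%, and control siRNAs 14.3%, 17.4% and 10.2%. Set 1 lay above the 9 other arrays at 207% of control, set 2 stood at 76.6% and overlapped the controls, and the plasmid group stood at 128% and overlapped them too. The difference between the sets was -1.44 ± 0.20, 2.71-fold higher in set 1, and -1.33, -1.64 and -1.34 within slides; with normexp background correction it was -0.94.

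Gprc5c, on chromosome 11, has 4 probes, 2 for each of 2 transcripts. The brightest, A_55_P2017694 for NM_001110337, read 15.9%, 12.8% and 13.2% in set 2 and 28.9%, 39.6% and 33.8% in set 1. It read 35.4%, 38.7% and 42.1% in the plasmid group and 23.1%, 29.7% and 21.9% with control siRNAs. Set 2 lay below the 9 other arrays at 56.3% of control. Set 1 overlapped both the controls and the plasmid group at 137%, and the plasmid group lay above all controls at 157%. The second probe for this transcript, A_55_P1968370, gave 59.8%, 135% and 164% of control in set 2, set 1 and the plasmid group, in the same order. The differences between the sets were -1.28 ± 0.17 and -1.17 ± 0.17 at these 2 probes.

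The probes for NM_147217 differed less between the sets. At A_51_P309988 and A_55_P2017689 the differences were -0.76 ± 0.26 and -0.77 ± 0.31, and set 2 and set 1 overlapped at both. With normexp background correction the difference at A_55_P2017689, the dimmest of the 4, was -0.19. The set 1 array of replicate 1 was the lowest of its group at both, with 17.0% against 30.8% and 26.1% at the first probe. All 4 probes were lower in set 2 than in set 1 within every slide, with differences from -0.23 to -1.64. Probes for 1 gene share its RNA and are not replicates of the condition.

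Rcan2, on chromosome 17 (A_55_P1961736), read 119%, 107% and 135% in set 2 and 283%, 250% and 281% in set 1. It read 351%, 386% and 396% in the plasmid group and 187%, 282% and 224% with control siRNAs. Set 2 lay below the 9 other arrays at 52.7% of control, set 1 overlapped the controls at 119%, and the plasmid group lay above all other arrays at 166%. The sets differed by -1.18 ± 0.16, 2.26-fold higher in set 1, with -1.25, -1.23 and -1.06 within slides.

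Sesn3, on chromosome 9 (A_51_P246773), read 92.0%, 70.5% and 85.0% in set 2 and 188%, 172% and 189% in set 1. It read 200%, 170% and 213% in the plasmid group and 192%, 200% and 200% with control siRNAs. Set 2 lay below the 9 other arrays at 41.5% of control. Set 1 lay below all controls as well, at 92.5%, and overlapped the plasmid group at 97.9%. The sets differed by -1.16 ± 0.13, 2.23-fold higher in set 1, with -1.03, -1.28 and -1.15 within slides.

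**Figure D1:**
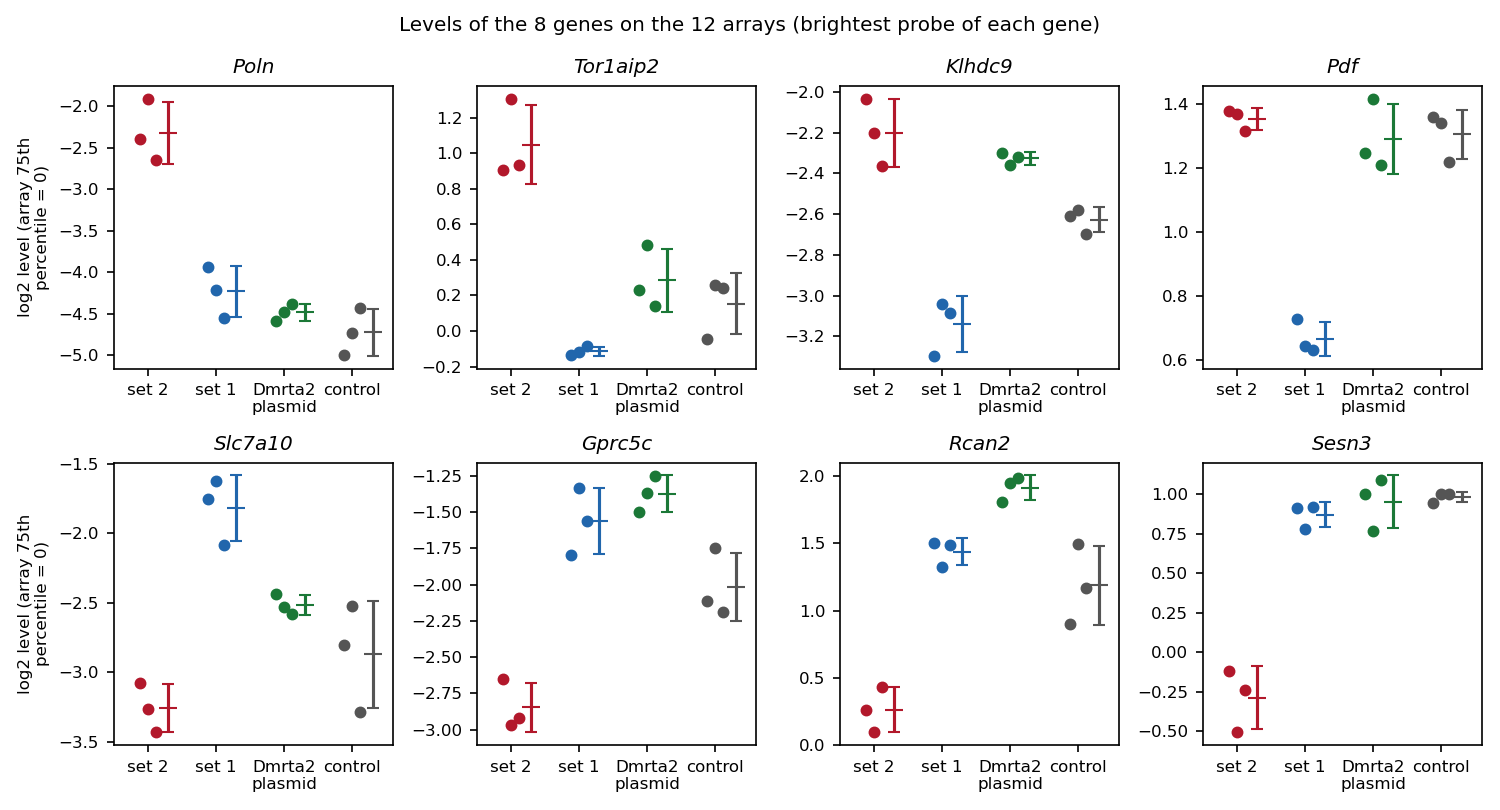
Each panel plots 1 gene at its brightest probe, with log2 level relative to the array's 75th percentile on the vertical axis and the groups set 2, set 1, Dmrta2 plasmid and control siRNAs from left to right. Points are arrays and bars the mean ± SD of 3; the axes differ between panels. Set 2 stands apart from the 9 other arrays for Poln, Tor1aip2, Gprc5c, Rcan2 and Sesn3, and set 1 for Tor1aip2, Klhdc9, Pdf and Slc7a10.

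Which set departed from control thus differed from gene to gene. The set 2 arrays all lay outside the range of the control arrays at 7 of the 13 probes that passed the filter, 3 above and 4 below, where 15.6% of all probes did so. The set 1 arrays did so at 5 probes, 1 above and 4 below, where 12.3% of all probes did. Set 2 and set 1 did not overlap at 9 of the 13 probes, 4 higher and 5 lower in set 2, where 12% of all probes did not; the genes were chosen on this comparison, and each set shares its arrays with it.

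The choice rested on a fit with 1 probe per gene, its brightest, in which 12 of 15369 genes (0.0781%) had an adjusted p below 0.05 between the sets. Fitted on each probe, with 28557 tested, the same comparison called 0 probes in limma (0%), with 2253 at an unadjusted p below 0.05. With the slide as a replicate block it called 10 probes, 3 higher and 7 lower in set 2, and among probes well above background on all arrays it called 15. Besides the 8 genes the 12 held Nras, a small GTPase (log2 difference -1.01), Emilin3, an extracellular matrix glycoprotein (-1.13), Zfp664, a zinc-finger protein (-0.76), and 1 clone. Pdf, with 0.69, was the last inside the threshold, and Otud7b, a deubiquitinase (0.99), and Rngtt, the mRNA capping enzyme (0.64), were just outside it.

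**Figure D2:**
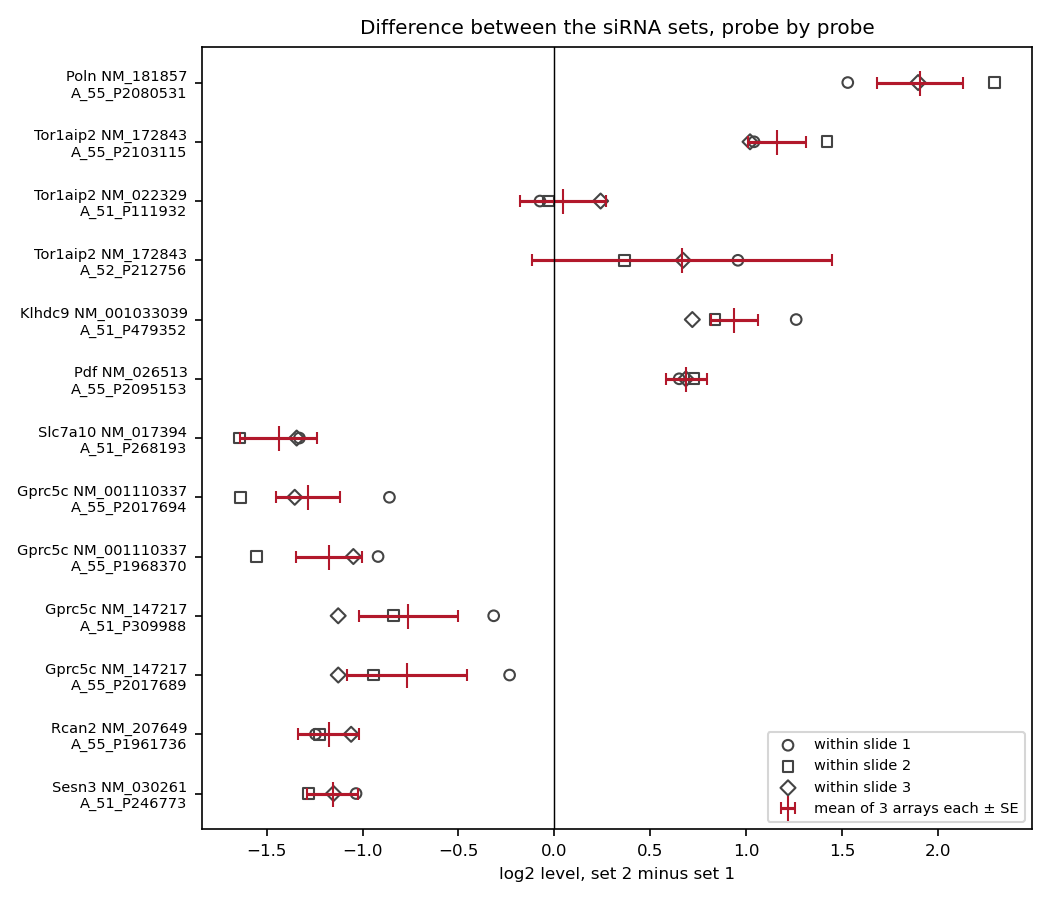
Difference in log2 level of set 2 minus set 1 on the horizontal axis for the 13 probes that passed the filter, 1 per line. Red bars are the difference of the means of 3 arrays ± SE, and open symbols the difference within each slide. At 12 probes the 3 slides lie on 1 side of zero, and at the Tor1aip2 probe A_51_P111932 they lie on both.

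The average of both siRNA sets against control siRNAs weighs the sets alike, but it is taken over the same set 2 and set 1 arrays that chose the genes, and a departure of 1 set enters it. Its values are therefore no separate evidence for the 8 genes. The adjusted p was below 0.05 at 2 of the 13 probes, those of Poln and Sesn3, where 0.287% of all probes passed (82 of 28557, 70 higher and 12 lower). That count over all probes was 1 without control replicate 1, 31 to 71 without any 1 other array, and 197 when slides were blocked. The spread estimated for each probe was shared with the comparison that chose the genes, and that choice favoured probes of small spread.

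At Poln the distance from control was 2.40 in set 2 and 0.49 in set 1, and the average of 1.45 ± 0.19, 2.73-fold, had a limma adjusted p of 0.0168, with 1.83, 1.67 and 0.84 within slides and an adjusted p of 0.0248 with the slide as a block. With normexp background correction the difference was 0.63 and did not pass (adjusted p = 0.195), and it did not pass without control replicate 1 (0.0977) or control replicate 2 (0.053). At Sesn3 the distance from control was -1.27 in set 2 and -0.11 ± 0.13 in set 1, so that nearly all of the average lay in set 2. That average was -0.69 ± 0.12, 1.61-fold lower (limma adjusted p = 0.0488), with -0.55, -0.87 and -0.66 within slides. The call at Sesn3 stood at the threshold: the adjusted p was 0.0247 with the slide as a block, and between 0.068 and 0.203 in 11 of the 12 fits that left out 1 array.

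The remaining 11 probes did not pass in the siRNA average. Klhdc9 gave -0.04 ± 0.11 (adjusted p = 0.965), Slc7a10 0.33 ± 0.17 (0.606) and Tor1aip2 0.31 ± 0.13 at its brightest probe (0.47). Pdf gave -0.30 ± 0.09 (0.29) and Rcan2 -0.34 ± 0.14 (0.464). The 4 Gprc5c probes lay between -0.19 and 0.22, and the dimmer Tor1aip2 probes gave 0.39 ± 0.19 (0.587) and 0.15 ± 0.68 (0.983). All of these are limma adjusted p-values.

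In the comparison of the Dmrta2 plasmid with control siRNAs, neither group entered the difference that chose the genes. Both did enter the estimate of spread used in that choice, which favoured probes of small spread. The standard errors and adjusted p-values of the 8 genes may therefore be too small here as well. None of the 13 probes passed in it, with or without the slide as a block, where 0.14% of all probes did (40 of 28558, all higher; 22 without plasmid replicate 1 or 3, and 25 without control replicate 1). Rcan2 had the largest difference among the 8 genes, 0.73 ± 0.16, 1.66-fold (limma adjusted p = 0.222), with 0.91, 0.46 and 0.82 within slides. Gprc5c followed with 0.71 ± 0.17 (0.315) and 0.65 ± 0.17 (0.406) at its NM_001110337 probes. Klhdc9 differed by 0.30 ± 0.12, with 0.31, 0.22 and 0.38 within slides. At these 4 probes all 3 plasmid arrays lay above all 3 controls, and at none below, where the groups did not overlap at 6.62% of all probes. The values of Sesn3 (-0.03 ± 0.13), Pdf (-0.02 ± 0.11) and Poln (0.24 ± 0.22) differed from control by less than 2 standard errors.

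**Figure D3:**
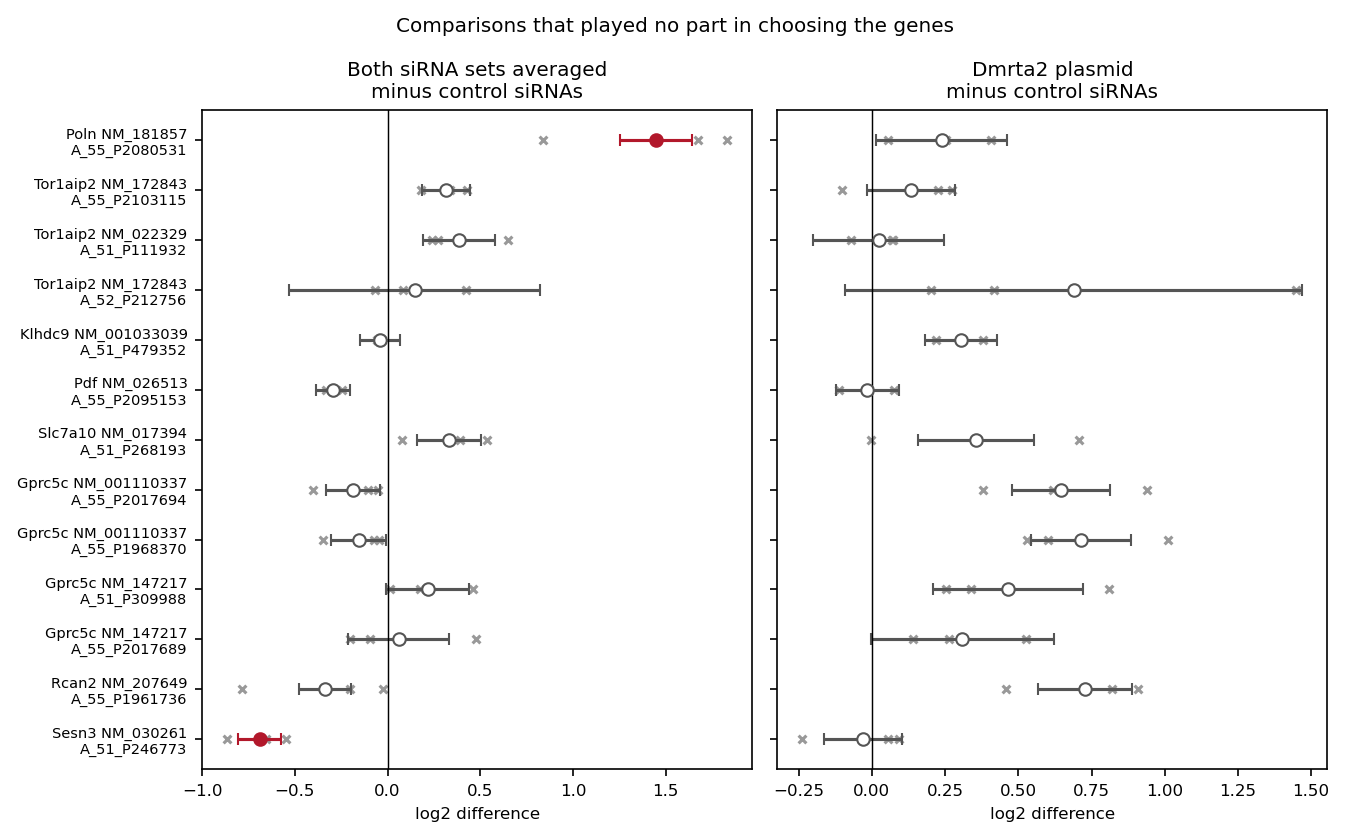
Log2 difference from control siRNAs of both siRNA sets averaged (left) and of the Dmrta2 plasmid group (right), for the 13 probes that passed the filter. Circles are differences of means with SE, filled red where the adjusted p was below 0.05, and grey crosses the values within each slide. The title printed above the panels, that these comparisons played no part in choosing the genes, does not hold for the left panel. The siRNA arrays on the left are those that chose the genes. Both panels share the estimate of spread used in that choice. Poln and Sesn3 are filled on the left, and no probe is filled on the right.

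Genes mostly from the same systems were examined beside each of the 8, with 1 probe per gene and the fit on each probe. Between set 2 and set 1 none of the related genes passed the threshold in limma, with or without the slide as a block. A list of 14 genes held DNA polymerases, partners in translesion and gap repair, and Haus3, which is neither (0.03 ± 0.21). All 14 were measured, with a median difference of 0.08, from -0.16 to 0.31, where the median of all probes was 0.01. Pcna, the polymerase clamp, differed by 0.07 ± 0.20 and Mad2l2, a subunit of polymerase zeta, by 0.31 ± 0.11 (adjusted p = 0.469).

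Of 6 torsin-system genes 5 were measured, with a median of 0.11; Tor1a, the torsin mutated in early-onset dystonia in people, differed by 0.11 ± 0.15. Of 9 other kelch-domain genes 8 were measured and had a median of 0.03. The list drawn up beside Pdf held Mtfmt, Metap1d, Metap1 and Metap2, of N-terminal methionine processing, and Cog8, which has no part in that process. All 5 were measured and had positive differences, with a median of 0.24 and the largest, 0.49 ± 0.27, at Cog8. Metap2, a methionine aminopeptidase, differed by 0.24 ± 0.16 (0.823). Of 14 Slc7 and Slc3 genes 10 were measured and had a median of 0.12, and Slc3a2, the heavy chain that partners Slc7a10, differed by 0.12 ± 0.26. The 3 other Gprc5 receptors had a median of -0.11, with 0.37 ± 0.22 at Gprc5b. Of 13 calcineurin-pathway genes 12 were measured and had a median of -0.03 and a range from -0.78 to 0.62, with 0.04 ± 0.14 at Ppp3cb, a catalytic subunit. Of 15 sestrin, FoxO and GATOR genes 14 were measured and had a median of -0.04, with -0.04 ± 0.20 at Sesn1, the relative of Sesn3.

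Targets of p53, the transcription factor of the DNA damage response, made up another list, of which all 15 were measured. Their median difference between the sets was 0.41, 11 positive and 4 negative, and none passed; Aen, an exonuclease, differed by 0.59 ± 0.17 (adjusted p = 0.335). In the siRNA average Ccng1, cyclin G1, was higher by 1.504 ± 0.18 (limma adjusted p = 0.0109). Without control replicate 1 that average called 1 probe over all probes, and whether it was that of Ccng1 is not given here. Eda2r, a receptor of the tumour necrosis factor family, was well above background on 2 set 2 arrays, 1 set 1 array and no plasmid or control array. It met the filter through the siRNA arrays alone, so its test is not given or counted. In the plasmid group none passed.

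Markers of other cells and of an interferon response were examined beside these genes. The 10 microglia markers were all higher in set 2 than in set 1, with a median of 0.81 and none past the threshold. Their summed level ran from 353% to 650% in set 2 and 229% to 584% in set 1. It ran from 351% to 653% in the plasmid group and 242% to 605% with control siRNAs. Csf1r, the brightest of the 10, made up most of these sums and hides the others in them. Against control the 10 had a median of 1.26 in the siRNA average and 1.65 in the plasmid group. In each, 9 were positive and 1 negative, which was Csf1r (-0.11 and -0.03). Tyrobp, Cx3cr1 and Aif1, microglial genes, were higher in the siRNA average (1.53, 1.20 and 1.13, limma adjusted p = 0.0265, 0.0336 and 0.0491). They were also higher in the plasmid group (1.95, 1.61 and 1.70), and both comparisons share the control arrays. Without control replicate 1 the siRNA average called 1 probe in all, so at most 1 of these 3 genes could pass there. Of 8 mesenchyme markers 4 were measured, and all 4 were lower in set 2 than in set 1, with a median of -1.75 and none past the threshold. Their summed level ran from 131% to 161% in set 2 and 182% to 696% in set 1, with a set 1 median of 243%. It ran from 105.1% to 161% in the plasmid group and 95.8% to 137% with control siRNAs. Dcn, the brightest of the 4, weighs most in the set 2 sums. Its mean log2 level was 0.38 in set 2 and 0.99 in set 1. The collagen genes lay from -5.48 to -3.17 in set 2 and from -3.58 to -1.58 in set 1. Between the sets Dcn differed by -0.61 ± 0.23, and the collagen genes by -1.59 to -2.33 with SE of 0.89 to 1.23. Of 10 interferon genes 7 were measured, and all 7 were higher in set 2, with a median of 1.17 and none past the threshold. Erythroid (5 of 6 measured), endothelial (6 of 8) and surface ectoderm markers (6 of 7) had medians of 0.18, 0.32 and -0.20, and telencephalic markers -0.06. Krt8, a keratin of simple epithelia, was well above background on the 3 plasmid arrays and on no other, and met the filter through that group alone, so its test is not given. The part of these cells in the differences of the 8 genes was not tested.

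For each of the 8 genes the most similar profiles were sought among 13753 genes well above background on all 12 arrays, by the root-mean-square difference (RMS, log2) of levels centred on their mean. Ccng1 (RMS 0.486) and Phlda3, another p53 target (0.572), came nearest to Poln, whose own RMS around its mean was 0.978. Chp1, a calcineurin B homologous protein (0.0552), and Rngtt (0.0634) came nearest to Pdf, whose own was 0.289. Gprc5c and Rcan2 were close to each other (0.206), with Ttyh2, a chloride channel family member, next to Gprc5c (0.207) and Wscd2 next to Rcan2 (0.201), against their own 0.590 and 0.620.

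Ccni, cyclin I (0.174), and Nras (0.193) came nearest to Sesn3, against its own 0.542. Scarf2, a scavenger receptor (0.260), and Pth1r, the receptor of parathyroid hormone (0.265), came nearest to Slc7a10 (own 0.566), and both were lower in set 2 than in set 1, with differences of -1.31 and -1.51. Mtmr11 (0.189) and Slc25a20, the mitochondrial carnitine carrier (0.201), came nearest to Tor1aip2 (own 0.453), and Kctd13 (0.172) and Chp1 (0.181) to Klhdc9 (own 0.374). All of these likenesses were taken over the same 12 arrays, which include those that chose the 8 genes.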

How the data were processed

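RNA of 12 samples in 4 groups was measured on one-colour Agilent arrays, with 0.1 µg of RNA labelled per sample, per the labels' protocols. The deposited scanner files hold spot intensities from Agilent Feature Extraction 10.5.1.1, per the file headers and the submitters' processing notes, background-corrected by that software. The deposited table of log2 values matched the scanner values after centring (correlation above 0.999 on every array); its columns had medians from -0.13 to 0.10, and its exact scaling and centring are not given in the sources used here. It was used as an alternative.

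Control spots and spots with an outlier mark (136 to 218 of 43020 per array) were left out, log2 processed signals were scaled by subtracting the array's own 75th percentile, and repeated spots of a probe were averaged. Probes were named through their RefSeq transcript in a mouse gene table of GRCm38.p6 (26055 of 39429 named), while the array annotation is on mm9 per the file headers. Probes well above background on at least 3 of 12 arrays were kept (28558). Differences were fitted with limma 3.58.1 in R 4.3.3 over all 12 arrays, each probe separately, with 8 residual degrees of freedom, two-sided tests and Benjamini-Hochberg adjustment at 0.05. The fits were tested on simulated data. The 4 arrays of a replicate number shared a slide, per the file headers, which pairs the samples. Their deviations from group means correlated by 0.03 to 0.67 (median 0.44, 18 pairs) for the same number and by -0.65 to 0.23 (median -0.20, 36 pairs) for different numbers. The samples are stated to be independent; what else they shared is not given in the sources used here, and the number of arrays limits precision.

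The members, the lists of related genes and the tests were chosen with earlier results of these data known. Named were the 8 genes, the 2 targets, genes called in a list with up to 2 of its brightest, the 2 nearest profiles per gene, and genes at the threshold. Alternatives were normexp background correction (offset 50), quantile and median scaling, the deposited table, 2 other filters, 1 probe per gene, the slide as a block, and each array left out. Normexp used median spot intensities, and local backgrounds with an outlier mark were replaced by the array's median background.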

Additional observations from a re-analysis of the deposited data

Results flagged for a closer look

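At 7 probes every set 2 array lay on one side of the control array of its slide and every set 1 array on the other. The share of all probes that did so was not computed, and choosing genes for a difference between the sets favours such a pattern. The count is therefore a description only. These values are log2 differences from control siRNAs, and the difference between the sets was not tested here, since the genes were chosen for it. Tor1aip2 (A_55_P2103115) stood at 0.90 in set 2 and -0.27 in set 1. Klhdc9 stood at 0.43 in set 2 and -0.51 in set 1. Pdf stood at 0.048 in set 2 and -0.64 in set 1, so that nearly all of its distance lay in set 1. Slc7a10 stood at -0.39 in set 2 and 1.05 in set 1. For Gprc5c the values were -0.83 in set 2 and 0.46 in set 1 at A_55_P2017694, -0.74 in set 2 and 0.43 in set 1 at A_55_P1968370, and -0.16 in set 2 and 0.60 in set 1 at A_51_P309988. The 3 Gprc5c probes share 1 gene and are not independent.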

How the results depend on the processing

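Every value rests on 3 arrays a group. The siRNA average called 82 probes, against 37 with normexp, 50 with median scaling, 51 with no filter, 197 with the slide as a replicate block, and 1 (without control replicate 1) to 71 when 1 array was left out. Overexpression called 40 probes, against 22 with normexp, 24 with probes well above background on all arrays, and 22 to 51 with 1 array left out. Set 2 against set 1 called 0, against 15 with probes well above background on all arrays, 12 with 1 probe per gene and 10 with the block, and 0 in all 12 fits with 1 array left out. In the siRNA average and in overexpression, where the 13 probes were tested, the replicate block changed no call among them.

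In the siRNA average Sesn3 gave -0.61 with normexp (limma adjusted p = 0.0695) and -0.69 with no filter (0.0907). Normexp moved set 2 minus set 1 to 1.05 at Poln, 0.63 at Klhdc9, 0.62 at Pdf, -0.94 at Slc7a10, and -0.92 and -0.80 at the NM_001110337 probes of Gprc5c; median scaling gave 0.74 at Pdf. The causes were not tested.

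Signs turned at 5 probes, in differences that the tests did not call or that had no test; the widest swings were at the dim Tor1aip2 probe A_52_P212756. Tor1aip2 A_51_P111932 gave -0.0055 in overexpression with median scaling and -0.076 to 0.099 with 1 array left out, and -0.12 to 0.25 between the sets. Tor1aip2 A_52_P212756 gave -0.042 in the siRNA average with normexp and -0.47 to 0.55 with 1 array left out, and -0.13 to 1.32 between the sets. Gprc5c A_55_P2017689 gave -0.051 in the siRNA average with normexp and -0.10 to 0.29 with 1 array left out. Pdf in overexpression gave -0.079 to 0.026 with 1 array left out. Sesn3 in overexpression gave 0.026 with normexp and -0.099 to 0.063 with 1 array left out.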
